A study of Mus musculus with 3 samples.

Results

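The genes described here attach, trim or modify the sugars of B cell glycoproteins and of antibodies, and 8 of the 32285 genes in the count matrices were followed: Cmah, St6gal1, B4galt1, Fut8, Mgat1, Mgat2, Man1a and Slc35a1. They were chosen by name, together with 1 of the 14 antibody tags in the same matrices, the GL7 tag (antiAPCGL7), which reads a sialic acid epitope on the cell surface. The cells were spleen B cells of female wild-type BXD2 mice, which are recombinant inbred and prone to lupus-like disease. Mice of the IL-4+R848 group received a complex of 5 µg of IL-4 and 25 µg of the anti-IL-4 antibody BVD4-1D11, which prolongs the action of the cytokine, and those of the R848 group received 25 µg of the antibody alone. Both groups then received R848, a synthetic compound that activates the RNA receptor TLR7, 2 hours later at 40 µg per 20 g of body weight; the whole course was given again 2 days on and the mice were killed another 2 days on, with 3 mice per treatment. B cells were enriched by negative selection, marked with hashtag antibodies, and both treatments were pooled in each of 3 single-cell 5′ libraries, called sets 1 to 3. No untreated mice were analysed here, so every cell had been exposed to R848 and to the anti-IL-4 antibody.

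Antibodies and most surface receptors carry N-linked glycans, which are trimmed and rebuilt in the Golgi apparatus in a fixed order. Man1a encodes a mannosidase that removes mannose residues, Mgat1 and Mgat2 encode the transferases that start the first and the second branch with N-acetylglucosamine, Fut8 encodes the enzyme that adds the core fucose, B4galt1 a galactosyltransferase that extends the branches, and St6gal1 the sialyltransferase that caps them with alpha-2,6-linked sialic acid. Slc35a1 encodes the transporter that brings CMP-sialic acid into the Golgi. Cmah encodes the hydroxylase that turns CMP-N-acetylneuraminic acid into the N-glycolyl form. The GL7 antibody binds alpha-2,6-linked N-acetylneuraminic acid, and mouse germinal center B cells are known to stain with it because they turn Cmah down. The fucose, galactose and sialic acid of the antibody Fc glycan are known to change how strongly antibodies engage Fc receptors.

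Sets 1, 2 and 3 held 14519, 11389 and 14222 cell barcodes, of which 1567, 943 and 1312 carried both hashtags and were removed. After filtering, 5125, 4579 and 5081 IL-4+R848 cells and 7146, 5641 and 7530 R848 cells remained. Sets 1 and 2 shared 230 barcode sequences, sets 1 and 3 shared 289, and sets 2 and 3 shared 219, and each was kept as the cell of its own library. Cells were clustered without the 8 genes, the glycosylation lists and the antibody tags, and the clusters were named by marker genes: follicular-like cells (51.9% of 35102 cells, with 7 of 7 follicular markers above the germinal center-like, plasmablast-like and cycling-like cells), marginal zone-like (10.0%), transitional-like (8.22%), plasmablast-like (7.16%), germinal center-like (4.89%), activated-like (4.20%), cycling-like (2.28%) and dividing plasmablast-like cells (1.48%). A cluster led by Zbtb32 (4.71%) and one led by Rag1 (1.84%) are called the Zbtb32 cluster and the Rag cluster. The marginal zone-like cluster also had Atf3 and Ccl3 among its leading genes, and Ccl3 is in the marker list of early activated cells as well. NK cell-like cells (0.575%) passed the selection and were not tested, and 2.74% of cells stayed unnamed. Follicular-like cells of the 2 treatments lay mostly in different clusters, numbers 1, 2 and 4 for IL-4+R848 and numbers 0 and 6 for R848. Against all other cells, 0 of 7 follicular markers were raised in cluster 2, 1 in cluster 4, and 5 each in clusters 0 and 6. Follicular-like cells were 67.8 ± 1.28% of IL-4+R848 cells and 40.1 ± 3.02% of R848 cells. Marginal zone-like cells were 3.54% and 14.8%, transitional-like cells 4.49% and 10.9%, and activated-like cells 1.77% and 6.03%. The part of this make-up in the treatment differences was not tested. UMIs were summed per set, treatment and state (36 to 3517 cells and 151410 to 23036484 UMIs a sum), and levels are CPM, gene UMIs scaled to a common library size after TMM normalisation, as mean ± SD over the 3 sets. Differences are log2 fold changes ± standard error from edgeR's quasi-likelihood test, called at a Benjamini-Hochberg adjusted p under 0.05 over all genes tested. The labels do not say that a set holds 1 mouse of each treatment, so the p-values measure the spread between sets, which may be technical. How many of all genes had groups that did not overlap was not counted, so non-overlap of a member is a description only.

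On the GRCm38 assembly (GENCODE M21), Cmah lies at chr13:24327404-24477377 and St6gal1 at chr16:23224740-23360350, both on the plus strand, and these were the 2 members called between treatments in follicular-like cells. Fut8 (chr12:77238125-77476338) and Mgat2 (chr12:69184157-69186770), the members with the largest differences in plasmablast-like cells, lie on the plus strand of chromosome 12, and Mgat1 at chr11:49244191-49263030 on the plus strand. B4galt1 (chr4:40804602-40854005), Slc35a1 (chr4:34663257-34687438) and Man1a (chr10:53904785-54076609) lie on the minus strand. All 8 are protein-coding. The 250 bases before the first listed start of Cmah and of St6gal1 and before the only listed start of Mgat2 are shown. They set the promoters of the pair called between treatments beside one of a member that was not called. The sequences come from the RefSeq table of GRCm38.p6, read 5′ to 3′ on the plus strand, with CG dinucleotides in capitals. The Cmah window is chr13:24327154-24327403, the St6gal1 window chr16:23224490-23224739 and the Mgat2 window chr12:69183908-69184157.
Cmah: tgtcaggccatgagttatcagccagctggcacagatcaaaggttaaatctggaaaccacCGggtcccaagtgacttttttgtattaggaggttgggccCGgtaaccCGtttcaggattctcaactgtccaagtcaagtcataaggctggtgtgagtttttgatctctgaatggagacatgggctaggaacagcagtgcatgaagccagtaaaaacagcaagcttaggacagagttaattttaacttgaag
St6gal1: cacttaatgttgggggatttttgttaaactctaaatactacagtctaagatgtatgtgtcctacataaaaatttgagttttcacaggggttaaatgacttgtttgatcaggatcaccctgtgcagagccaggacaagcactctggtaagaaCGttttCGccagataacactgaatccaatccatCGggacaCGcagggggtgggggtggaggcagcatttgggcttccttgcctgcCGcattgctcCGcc
Mgat2: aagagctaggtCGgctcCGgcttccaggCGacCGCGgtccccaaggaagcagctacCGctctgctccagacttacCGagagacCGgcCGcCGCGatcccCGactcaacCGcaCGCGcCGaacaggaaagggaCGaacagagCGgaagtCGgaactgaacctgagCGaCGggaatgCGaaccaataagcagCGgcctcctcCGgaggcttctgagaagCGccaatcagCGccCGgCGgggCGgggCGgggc

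The Cmah window held 3 CG dinucleotides and 45.6% G and C, the St6gal1 window 6 and 47.2%, and the Mgat2 window 30 and 66.8%, against medians of 6 and 52.4% over the windows of all 32851 listed starts. The table lists 2 starts for Cmah, 3 for St6gal1, 4 for Fut8 and 3 for Mgat1, and 1 for each other member. Both strands of every window were searched for TTC and GAA with 4 bases between them, the spacing known for STAT6, the factor downstream of the IL-4 receptor, which 5.85% of all windows held, and for TTCNNNGAA, known for other STAT factors (7.02%). The octamer ATGCAAAT (1.6%) and CACCTG (17.2%) were searched as well. None of the 4 was found in the Cmah or St6gal1 windows. TTCNNNGAA, which reads alike on both strands, was found once in the B4galt1 window and once in the Mgat2 window, and CACCTG in 2 of the 4 Fut8 windows.

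Cmah RNA was lower with IL-4 in follicular-like cells. It measured 45.4, 40.4 and 45.8 CPM in the IL-4+R848 sums of sets 1, 2 and 3, against 91.7, 99.2 and 93.0 CPM in the R848 sums. The groups did not overlap, and Cmah fell by 1.11 ± 0.07 on the log2 scale (43.9 ± 2.99 CPM with IL-4+R848 and 94.6 ± 4.02 CPM with R848, SD, n = 3 each; adjusted p 2.49e-06). In this state 17.1% of the 11180 genes tested were called, and 2 of the 8 members were, Cmah and St6gal1. IL-4+R848 follicular-like cells were also deeper, with a median of 5958 gene UMIs a cell (mean over sets) against 4337 in R848 cells.

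In the other states the Cmah difference had different sizes. In the Zbtb32 cluster, where Cmah was highest under R848, it measured 134.5, 109.5 and 100.8 CPM with IL-4+R848 and 205.5, 180.2 and 220.9 CPM with R848, and fell by 0.81 ± 0.13 (adjusted p 0.0116). In transitional-like cells it measured 36.3, 27.0 and 42.3 CPM with IL-4+R848 and 66.9, 70.5 and 61.9 CPM with R848, and fell by 0.89 ± 0.17 (adjusted p 0.0135). Cmah was the only member called in these states, where 2.22% (Zbtb32 cluster) and 1.76% (transitional-like, 144 genes, and 236 with the set as a block) of all genes tested were called. Neither call held in every run: the adjusted p was 0.0510 without set 2 and 0.116 without set 3 in the Zbtb32 cluster, and 0.0584 without set 1 and 0.226 without set 2 in transitional-like cells, with all alternatives between 1.10e-06 and 0.116 in the Zbtb32 cluster and between 1.55e-05 and 0.226 in transitional-like cells. Marginal zone-like cells (40.0 ± 7.94 CPM with IL-4+R848, 59.6 ± 2.37 CPM with R848; log2 difference -0.54, adjusted p 0.0775, and 0.00291 to 0.585 over the alternatives) and activated-like cells (15.6 ± 3.22 CPM and 28.8 ± 2.53 CPM; -0.80, adjusted p 0.152, and 0.0418 to 0.734 over the alternatives) did not pass, although their groups did not overlap, nor did those of the Rag cluster (37.9 ± 9.0 and 55.0 ± 8.66 CPM; -0.54, adjusted p 0.865); 1.19% of genes were called in marginal zone-like cells, 1.1% in activated-like cells (90 genes, and 152 with the set as a block) and 0.313% in the Rag cluster (15 genes, and 33 with the block). Cycling-like cells (-0.31, 1.3% of genes called) and dividing plasmablast-like cells (-0.12, 0.0483% called) overlapped between treatments.

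In germinal center-like cells Cmah was low under both treatments, at 23.5, 23.4 and 18.3 CPM with IL-4+R848 and at 17.9, 24.7 and 20.6 CPM with R848. The groups overlapped and the difference was 0.12 ± 0.16 on the log2 scale (adjusted p 0.930), in a comparison that called 0.277% of genes (27 genes, and 135 with the set as a block). In plasmablast-like cells it measured 143.9, 145.0 and 121.3 CPM with IL-4+R848 and 147.5, 148.3 and 149.3 CPM with R848, values that did not overlap but differed by -0.09 ± 0.09, which was not called. edgeR called 0 of 9717 genes there (0%), with 479 at an unadjusted p under 0.05; DESeq2 called 29, and edgeR 2 with the set as a block. The test of the difference between states, each state's IL-4 effect minus that of follicular-like cells, was called for Cmah in germinal center-like cells (1.21 ± 0.21, adjusted p 0.000241), plasmablast-like cells (1.01 ± 0.19, adjusted p 0.000834) and dividing plasmablast-like cells (0.96 ± 0.20, adjusted p 0.00338), where 2.2%, 1.26% and 1.28% of genes were called. It was not called for the Zbtb32 cluster (0.30 ± 0.19) or transitional-like cells (0.21 ± 0.22), nor in the Rag cluster, activated-like, cycling-like or marginal zone-like cells. The share of genes called was 0.103% for the Zbtb32 cluster, 0.215% for transitional-like cells, 0.328% for the Rag cluster, 0.15% for activated-like, 0.159% for cycling-like and 0.365% for marginal zone-like cells.

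**Figure D1:**
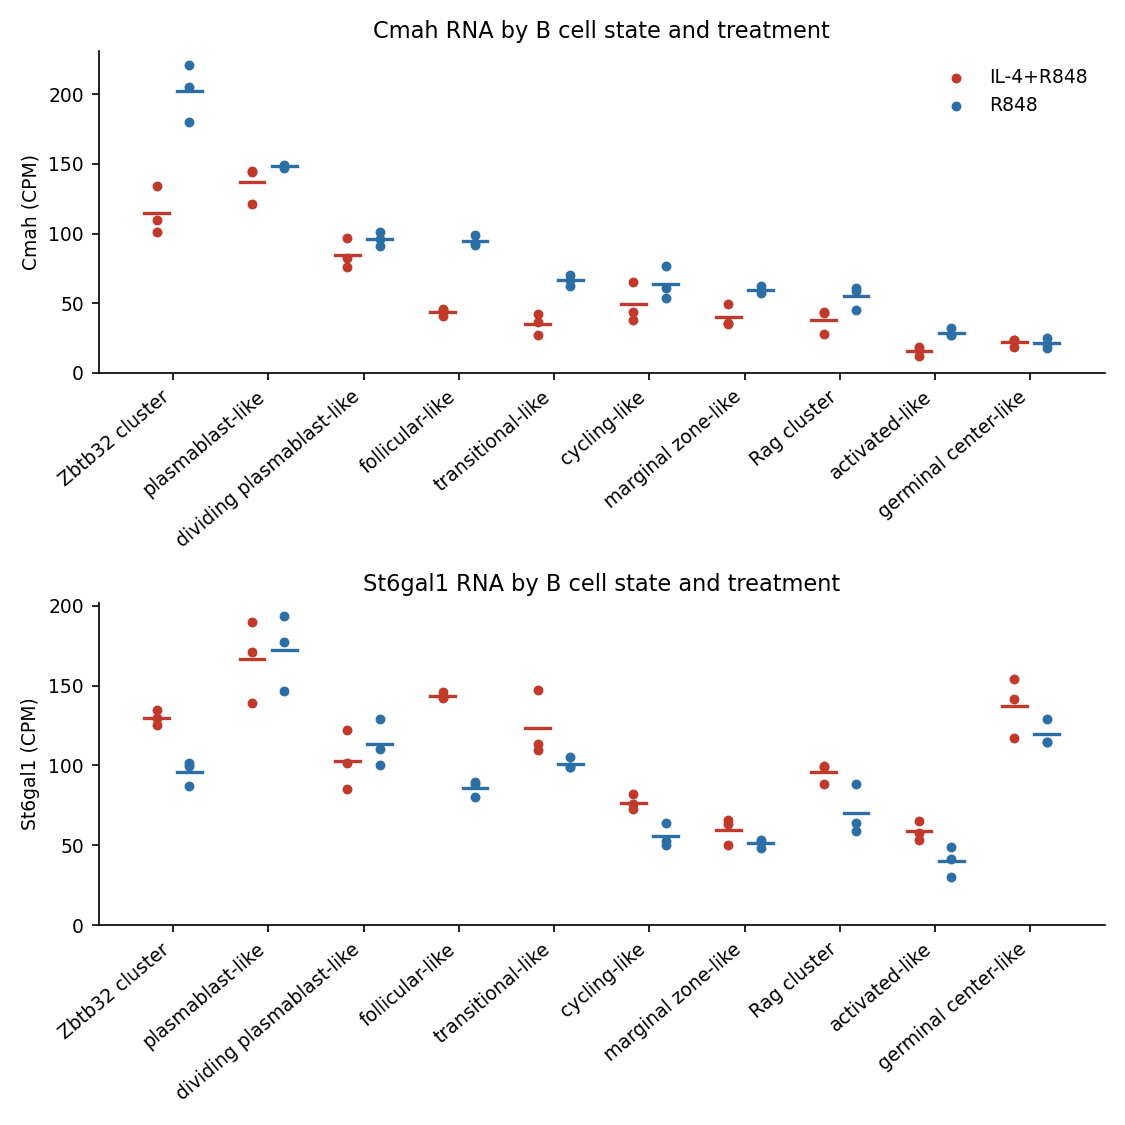
Cmah (top) and St6gal1 (bottom) in CPM by B cell state, ordered by Cmah in R848 cells; each point is 1 set and each bar the mean of 3, with IL-4+R848 left of R848. In follicular-like cells Cmah lies at 40.4 to 45.8 CPM with IL-4+R848 and at 91.7 to 99.2 CPM with R848, and St6gal1 lies the other way round.

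St6gal1 RNA was higher with IL-4 in follicular-like cells. It measured 145.9, 142.1 and 142.7 CPM in the IL-4+R848 sums and 89.9, 88.3 and 80.3 CPM in the R848 sums. The groups did not overlap, and St6gal1 rose by 0.74 ± 0.06 on the log2 scale (143.6 ± 2.07 CPM with IL-4+R848, 86.1 ± 5.13 CPM with R848, SD, n = 3 each; adjusted p 1.35e-05). In no other state was St6gal1 called between treatments. All 3 IL-4+R848 sums lay above all R848 sums in transitional-like cells (123.3 ± 20.6 and 101.0 ± 3.67 CPM; log2 difference 0.30), in the Rag cluster (95.7 ± 6.29 and 70.4 ± 15.7 CPM; 0.44), in the Zbtb32 cluster (129.9 ± 4.51 and 96.1 ± 7.74 CPM; log2 difference 0.43, adjusted p 0.0668), in activated-like cells (58.6 ± 5.91 and 40.0 ± 9.48 CPM; 0.62, adjusted p 0.217) and in cycling-like cells (76.8 ± 4.58 and 55.7 ± 7.51 CPM; 0.51, adjusted p 0.125).

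Clusters were also made from values centred within set and treatment, where a follicular-like cluster was still 96.1% IL-4+R848 cells. In these clusters St6gal1 was also called in marginal zone-like cells (0.89, adjusted p 4.38e-05, against 0.26 in the clusters used here). In the same run it was called in transitional-like (0.62, adjusted p 0.00207) and activated-like cells (0.73, adjusted p 0.0300). Over all alternatives the adjusted p ran from 4.38e-05 to 1.00 in marginal zone-like, from 0.00207 to 1.00 in transitional-like and from 0.0298 to 0.637 in activated-like cells. In plasmablast-like cells St6gal1 measured 189.9, 171.0 and 139.2 CPM with IL-4+R848 and 193.5, 177.5 and 146.6 CPM with R848, and in dividing plasmablast-like cells 102.9 ± 18.5 and 113.4 ± 14.6 CPM. Set 1 was highest and set 3 lowest under both treatments in plasmablast-like cells, and the treatments overlapped. The IL-4 effect on St6gal1 was lower there than in follicular-like cells, by the test of the difference, in plasmablast-like (-0.76 ± 0.18, adjusted p 0.0160) and dividing plasmablast-like cells (-0.84 ± 0.19, adjusted p 0.00915). In germinal center-like cells that difference was -0.49 ± 0.18 (adjusted p 0.204).

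The other 6 genes were called in no state between IL-4+R848 and R848, and Slc35a1 was too low to be tested in the Rag cluster. Single alternatives called 3 of them elsewhere. Clusters centred within set and treatment called Man1a in marginal zone-like cells (0.39, adjusted p 0.00476, in a range of 0.00476 to 0.672 over its alternatives) and B4galt1 in transitional-like cells (0.49, adjusted p 0.0439, range 0.0439 to 1.00). With no filter on low counts Fut8 was called in the Zbtb32 cluster (-0.54, adjusted p 0.0216, range 0.0216 to 0.433). In follicular-like cells Man1a measured 173.1, 170.7 and 169.1 CPM with IL-4+R848 and 161.5, 152.7 and 152.5 CPM with R848, which did not overlap; the difference of 0.14 ± 0.05 had an adjusted p of 0.0831, and of 0.0397 with the set as a block (0.0397 to 0.365 over its alternatives). Fut8 was level at 15.8 ± 0.926 CPM with IL-4+R848 and 15.6 ± 0.873 CPM with R848, a log2 difference of 0.02 ± 0.08. Mgat1 differed by -0.01 ± 0.07, Slc35a1 by 0.05 ± 0.10, Mgat2 by 0.15 ± 0.06 and B4galt1 by 0.16 ± 0.07. The groups of Mgat2 (adjusted p 0.122) and B4galt1 (adjusted p 0.139) did not overlap either, which is not read as a difference because the share of all genes apart in this way was not counted. Over the 8 members the median log2 difference was 0.09 in follicular-like cells, against -0.01 over all genes tested.

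Around these members, 10 lists of 123 genes of sialic acid, galactose, fucose and N-glycan biosynthesis and of sialic acid-binding lectins were counted. In follicular-like cells 4 of the 101 list genes tested rose with IL-4 and 9 fell, a smaller share than the 17.1% called over all genes, so the counts are a description of single genes and not of the pathway. Of the sialic acid supply genes, Renbp, which interconverts N-acetylglucosamine and N-acetylmannosamine, fell beside Cmah (10.7 ± 0.627 CPM with IL-4+R848, 15.3 ± 0.971 CPM with R848; -0.51 ± 0.09, adjusted p 0.00337), and none of 8 rose. Of 12 sialyltransferases tested St6gal1 rose and 3 fell, among them the alpha-2,8-sialyltransferase genes St8sia6 (3.00 ± 0.399 and 7.28 ± 1.27 CPM; -1.28 ± 0.17) and St8sia4 (52.2 ± 3.02 and 77.6 ± 3.33 CPM; -0.57 ± 0.07). Neu1, the lysosomal sialidase, fell (24.0 ± 1.79 and 31.5 ± 2.94 CPM; -0.39 ± 0.09). Siglecg, an inhibitory sialic acid receptor of B cells, rose (140.0 ± 9.43 and 115.4 ± 8.77 CPM; 0.28 ± 0.07, adjusted p 0.0208). None of 8 galactosylation and none of 8 UDP-GlcNAc genes was called, and of 16 branching and trimming genes Man2a2 fell (-0.33 ± 0.10). The list genes were called by edgeR neither in germinal center-like cells (0 of 97) nor in plasmablast-like cells (0 of 99), where the counts over all genes at an unadjusted p under 0.05 were 767 and 479, and DESeq2 called 80 and 29 of all genes.

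The GL7 tag marked germinal center-like cells most strongly. Under R848 their median tag count was 321, 370.5 and 247 UMIs a cell in sets 1 to 3, against 5, 5 and 4 in follicular-like cells. The Rag cluster came next with medians of 100, 71.5 and 29.5, then transitional-like cells with 21, 16 and 9, and neither overlapped with follicular-like cells. In all other states the R848 medians lay between 3 and 12. With 3 sets against 3 the exact permutation test cannot give a two-sided p below 0.10, which it gave for germinal center-like cells, the Rag cluster, transitional-like and dividing plasmablast-like cells against follicular-like cells. NK cell-like cells, which lie outside the B lineage, had 50 or more tag UMIs in 8 of 202 cells (3.96%, exact 95% interval 1.73% to 7.65%, counting error only), at median surface tag counts of 265 UMIs with IL-4+R848 and 448 with R848. Under R848 follicular-like cells (3.17 ± 0.699%) and marginal zone-like cells (2.5 ± 0.884%) were below that share and activated-like cells (4.15 ± 0.441%) inside its interval, and these shares are not read as a signal above that of NK cell-like cells.

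With IL-4 the tag was higher in follicular-like cells. Their median was 11, 13 and 7 UMIs with IL-4+R848, against 5, 5 and 4 with R848 in sets 1 to 3, and cells with 50 or more tag UMIs, a limit set after the tag was seen, made up 21.2%, 23.3% and 18.0% with IL-4+R848 and 3.87%, 3.16% and 2.48% with R848. The groups did not overlap (exact permutation test, two-sided p 0.1, the lowest possible). The median over all 12 surface tags was itself higher, 942 ± 153 UMIs with IL-4+R848 and 652 ± 97.1 with R848. The GL7 tag is itself 1 of these 12. Its value per 1000 surface tag UMIs is therefore a share, which falls where other tags rise. Per 1000 surface tag UMIs, the GL7 tag measured 44.4, 53.6 and 47.7 with IL-4+R848 and 14.9, 14.4 and 13.8 with R848, a ratio of means of 3.39. Activated-like cells had medians of 21, 15 and 7 UMIs with IL-4+R848 against 6, 5 and 3 with R848, and cycling-like cells 122, 38 and 26 against 9, 10 and 5. Both groups were apart in each of these states (exact p 0.1 each), and set 3 was lowest under both treatments. Per 1000 surface tag UMIs, activated-like cells measured 121, 93.3 and 63.6 with IL-4+R848 and 19.2, 17.1 and 17.1 with R848, a ratio of means of 5.21. On that scale cycling-like cells measured 187, 169.9 and 136 with IL-4+R848 and 107, 133 and 62.3 with R848, a ratio of 1.63, against 7.75 for the means of their medians. Marginal zone-like cells (35.1 ± 12.8 and 12.2 ± 1.30) and transitional-like cells (175 ± 28.3 and 119 ± 20.7) were apart on it too (exact p 0.1 each), though not by median. In the Zbtb32 cluster cells with 50 or more tag UMIs were 18.6 ± 1.80% and 13.2 ± 0.968% (exact p 0.1). Its values per 1000 were 79.4 ± 6.90 and 87.9 ± 11.2 (exact p 0.2).

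In germinal center-like cells the direction depended on the scale. Median tag UMIs were 444, 493 and 367.5 with IL-4+R848 and 321, 370.5 and 247 with R848 (exact p 0.2). Per 1000 surface tag UMIs the tag measured 427, 432 and 437 with IL-4+R848 and 551, 624 and 571 with R848, lower in all 3 sets (exact p 0.1), while the median over all surface tags was 987 ± 213 UMIs with IL-4+R848 and 585 ± 119 with R848. The GL7 tag is a large part of the surface tag UMIs in this state, so this share is not a correction for tag depth. The part of the other tags in its fall was not tested. In plasmablast-like cells the medians were 9, 9 and 7 with IL-4+R848 and 9, 7 and 5 with R848, and in dividing plasmablast-like cells 8, 11.5 and 9.5 against 10.5, 12 and 7; both overlapped. Across the 10 states, tag medians and mean Cmah CPM had a Spearman rho of -0.59 with IL-4+R848 and -0.25 with R848, and Pearson's r of their logs was -0.51 and -0.58; the states share libraries and depth, and these values are a description only.

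**Figure D2:**
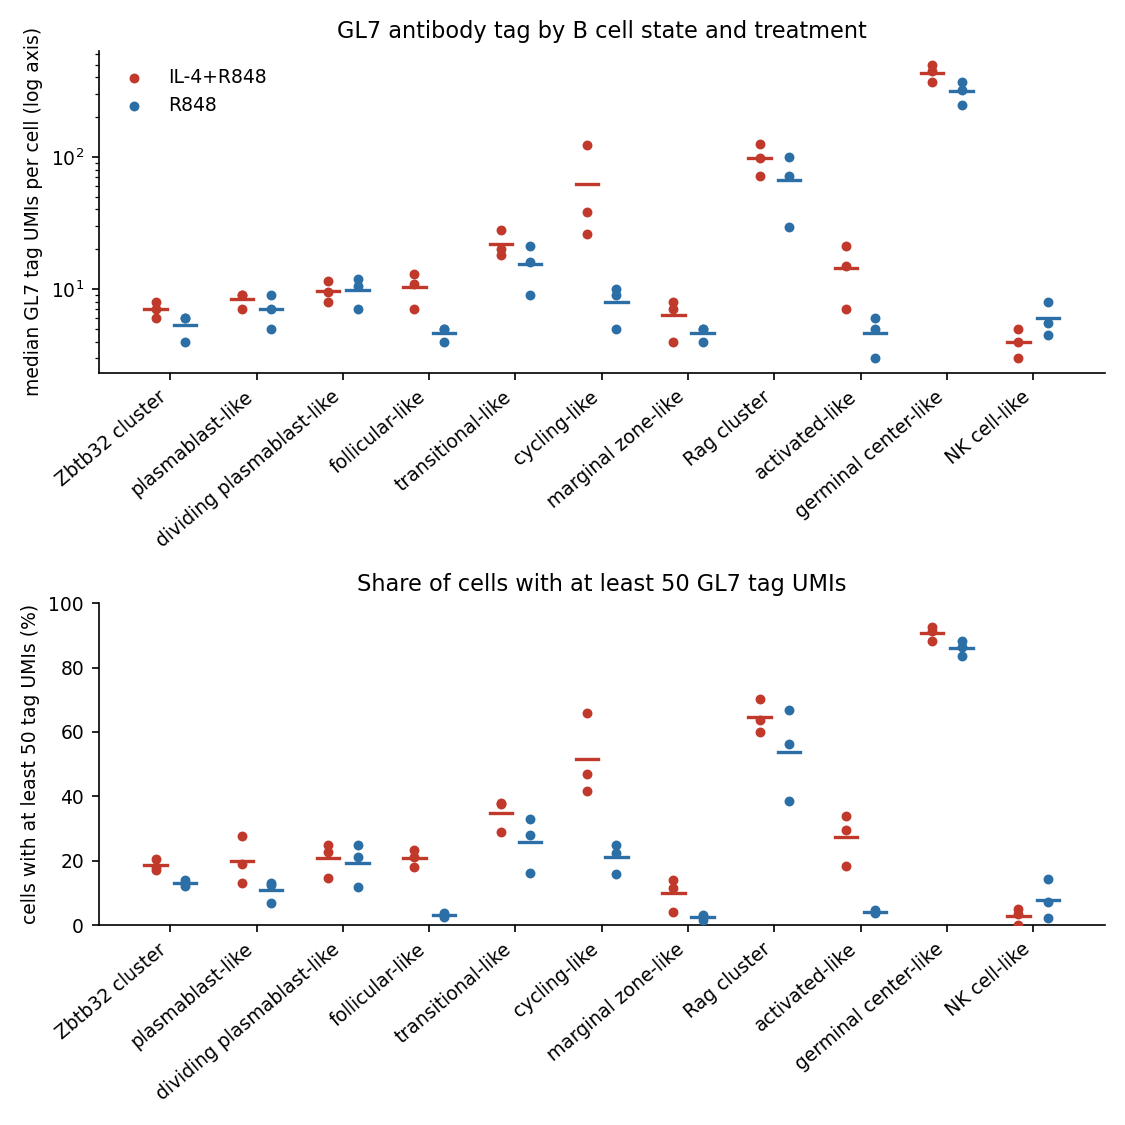
GL7 antibody tag by state and treatment, as the median UMIs per cell on a log axis (top) and as the percent of cells with at least 50 tag UMIs (bottom); each point is 1 set, each bar the mean of 3, and IL-4+R848 stands left of R848. Germinal center-like cells lie at medians of 247 to 493 UMIs, and follicular-like cells at 7 to 13 with IL-4+R848 and at 4 to 5 with R848.

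Cells of 1 state, set and treatment were then ranked by the GL7 tag's share of their surface tag UMIs and cut into 3 equal groups, and the top group (GL7-high) was compared with the bottom group (GL7-low). In germinal center-like R848 cells Cmah measured 13.2, 17.5 and 12.6 CPM in the GL7-high cells and 20.8, 34.4 and 23.9 CPM in the GL7-low cells of sets 1 to 3. The groups did not overlap, and Cmah was lower in GL7-high cells by -0.85 ± 0.16 on the log2 scale (adjusted p 0.0152). Man1a measured 30.5, 33.1 and 25.3 CPM in GL7-high and 66.4, 75.2 and 63.5 CPM in GL7-low cells (-1.20 ± 0.11, adjusted p 0.00112), and B4galt1 7.39, 7.49 and 7.22 CPM against 16.8, 15.9 and 16.1 CPM (-1.14 ± 0.19, adjusted p 0.00980). All 3 were lower in the GL7-high cells in every set, and 11.4% of all genes tested were called. St6gal1 (-0.17 ± 0.10), Fut8 (0.15 ± 0.12), Mgat1 (-0.51 ± 0.17), Mgat2 (-0.16 ± 0.11) and Slc35a1 (-0.16 ± 0.21) were not called.

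Other genes moved with this split. The marker sums that follow are CPM without TMM scaling, unlike the levels of single genes. The summed level of the 10 germinal center markers was 2349 to 2483 CPM in the GL7-high cells and 1536 to 1638 CPM in the GL7-low cells, and 5 of the 10 were called higher. That of the 7 follicular markers was 227 to 347 CPM in GL7-high and 724 to 988 CPM in GL7-low cells; all 7 were called lower, among them Ighd (-3.18) and Fcer2a (-2.29). Antibodies to IgD and to CD23, the products of Ighd and Fcer2a, are among the surface tags in the share. Cells with less of these proteins rank higher by the rule itself, so the falls of Ighd and Fcer2a are no separate result. The summed level of the cycling markers was apart as well, at 2032 to 2604 CPM in GL7-high and 1618 to 1951 CPM in GL7-low cells, and in IL-4+R848 germinal center-like cells at 2031 to 2427 CPM and 1636 to 1924 CPM. The part of the follicular, germinal center and cycling genes in the Cmah, Man1a and B4galt1 differences was not tested. The Cmah call was lost when cells were ranked by tag UMIs alone (-0.61, adjusted p 0.0562) and without set 2 (-0.78, adjusted p 0.172), in a range of adjusted p from 0.00486 to 0.172 over its alternatives. B4galt1 lost its call in the same runs (adjusted p 0.119 and 0.0990, range over its alternatives 0.0101 to 0.883). Man1a kept its call in all 6 alternatives (adjusted p 3.94e-06 to 0.0422). Between narrower extremes of the tag, Cmah and B4galt1 were too low to be tested. In IL-4+R848 germinal center-like cells Cmah measured 14.7, 10.7 and 16.8 CPM in GL7-high and 31.3, 34.4 and 27.5 CPM in GL7-low cells, a log2 difference of -1.14 (adjusted p 0.0466, 4.31% of genes called), Man1a differed by -0.94 (adjusted p 0.0422) and B4galt1 differed by -0.16 (adjusted p 0.883).

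In follicular-like cells Cmah was not called between GL7-high and GL7-low cells of either treatment. In IL-4+R848 cells, where 20.8% of cells had 50 or more tag UMIs, it measured 47.2, 40.2 and 50.9 CPM in GL7-high and 47.9, 40.2 and 45.5 CPM in GL7-low cells (0.03, 7.8% of genes called). In R848 cells it measured 87.5, 110.7 and 91.8 CPM in GL7-high and 92.2, 99.3 and 102.1 CPM in GL7-low cells (-0.03 ± 0.07, adjusted p 0.889; 3.78% of genes called). The groups overlapped in both. In R848 cells the median tag counts were 12, 11 and 8.5 UMIs in GL7-high and 2, 2 and 1 in GL7-low cells of sets 1 to 3. The tag of these R848 cells was not read as a signal above that of NK cell-like cells, so their split cannot show whether Cmah follows the epitope. B4galt1 was higher in the GL7-high group of IL-4+R848 cells (54.7 ± 0.382 and 43.7 ± 2.21 CPM; 0.31, adjusted p 0.0108). Fas, a death receptor gene among the germinal center markers, was higher there too (0.94 ± 0.19, adjusted p 0.00713). Rgs13, another of these markers, which encodes a regulator of G protein signalling, was higher in the GL7-high group of IL-4+R848 cells (1.73 ± 0.34, adjusted p 0.00609) and of R848 cells (1.89 ± 0.45, adjusted p 0.0226).

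**Figure D3:**
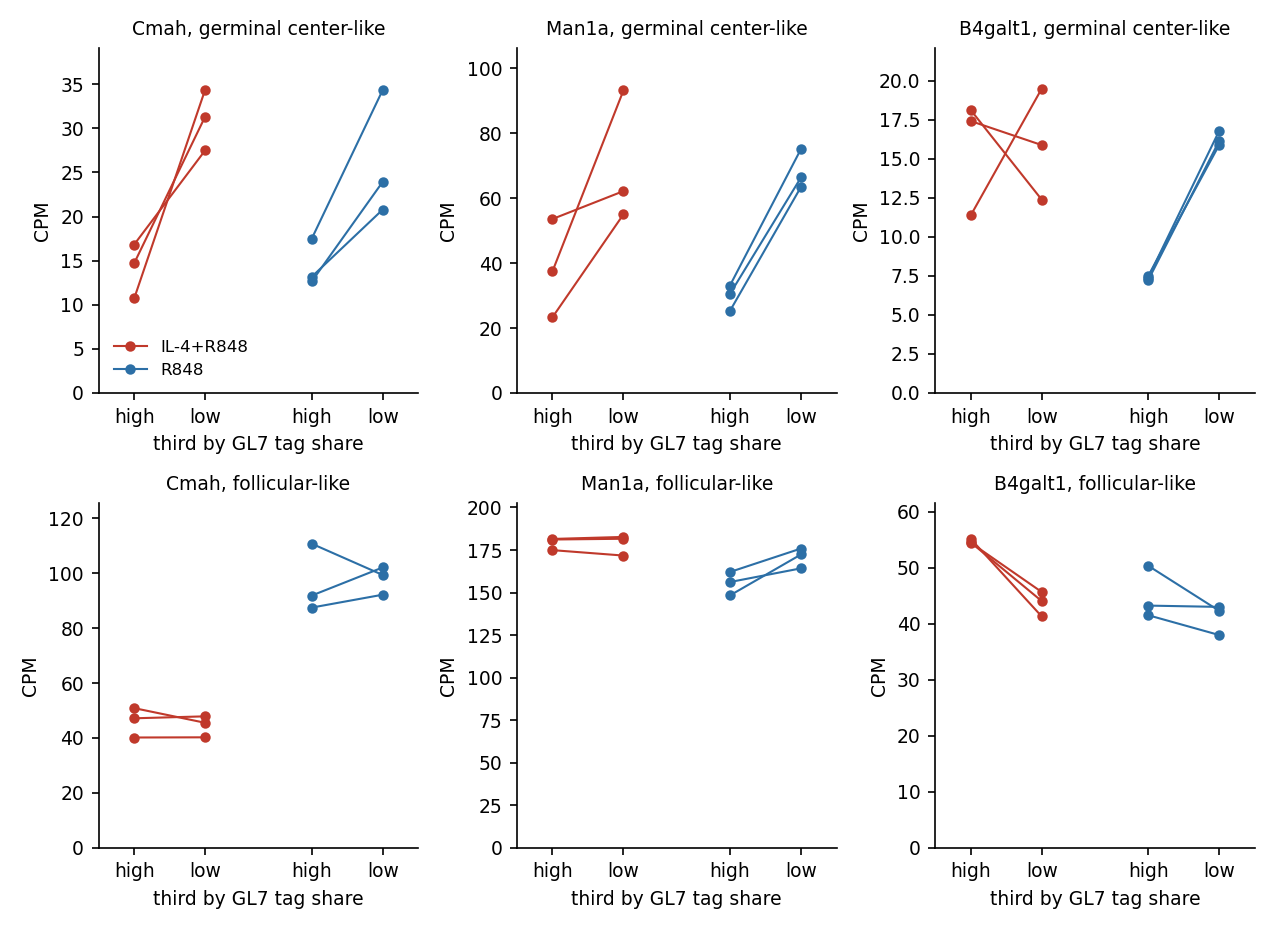
Cmah, Man1a and B4galt1 in CPM in GL7-high and GL7-low cells, for germinal center-like (top row) and follicular-like cells (bottom row); each line joins the groups of 1 set, IL-4+R848 left of R848. In germinal center-like R848 cells all 3 genes are lower in the GL7-high cells in every set, and in follicular-like cells the Cmah lines run in both directions and the groups overlap.

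The order of the states differed from gene to gene. Under R848 Cmah was highest in the Zbtb32 cluster (202.2 ± 20.6 CPM), followed by plasmablast-like cells (148.4 ± 0.936), dividing plasmablast-like (96.2 ± 5.27) and follicular-like cells (94.6 ± 4.02), which overlapped, then transitional-like (66.4 ± 4.28), cycling-like (63.6 ± 12.1), marginal zone-like (59.6 ± 2.37) and Rag cluster cells (55.0 ± 8.66), each overlapping the next, activated-like cells (28.8 ± 2.53) and germinal center-like cells (21.1 ± 3.40). With IL-4+R848 plasmablast-like cells (136.7 ± 13.4 CPM) stood above the Zbtb32 cluster (114.9 ± 17.5), and those groups overlapped. St6gal1 under R848 was highest in plasmablast-like cells (172.5 ± 23.8 CPM) and next in germinal center-like cells (119.5 ± 8.44); from there each state overlapped its neighbour down to activated-like cells (40.0 ± 9.48).

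Plasmablast-like cells, which secrete antibody, had higher levels of 7 of the 8 members than follicular-like cells of the same R848 sets, in a comparison that called 70% of 11009 genes. Of all genes tested, 3764 were called higher and 3947 lower. Fut8 measured 350.1, 323.8 and 424.4 CPM in plasmablast-like cells and 16.4, 15.8 and 14.7 CPM in follicular-like cells, a rise of 4.53 ± 0.14 on the log2 scale (adjusted p 3.19e-06). Mgat2 measured 262.7, 235.1 and 266.0 CPM in plasmablast-like cells and 31.5, 32.3 and 32.5 CPM in follicular-like cells (2.97 ± 0.09), and Mgat1 255.6, 221.4 and 214.0 CPM against 67.5, 56.6 and 57.0 CPM (1.92 ± 0.08). For each of these 3 the groups were far apart. St6gal1 (0.98 ± 0.09), Man1a (0.88 ± 0.11), Cmah (0.64 ± 0.07) and B4galt1 (0.57 ± 0.08) rose by less, and Slc35a1 did not pass (13.2 ± 1.55 and 11.2 ± 0.516 CPM; 0.22 ± 0.13, adjusted p 0.194). The median over the 8 members was 0.93, against -0.06 over all genes tested. Among IL-4+R848 cells, whose follicular-like cells had less Cmah and more St6gal1, the same contrast gave 1.64 for Cmah, 0.20 for St6gal1 (adjusted p 0.174) and 0.26 for B4galt1 (adjusted p 0.0848). Dividing plasmablast-like cells had 6 members called higher, of which Fut8 (3.51 ± 0.09) and Mgat2 (2.56 ± 0.10) differed most, with 70.6% of genes called, 3551 of 10699 higher and 3998 lower.

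Germinal center-like cells had a mixed pattern, with 73.2% of 10994 genes called against follicular-like cells under R848. Cmah measured 17.9, 24.7 and 20.6 CPM in germinal center-like cells and 91.7, 99.2 and 93.0 CPM in follicular-like cells and fell by 2.19 ± 0.09 (adjusted p 6.84e-08). Man1a fell by 1.72 ± 0.07 (47.8 ± 1.66 and 155.6 ± 5.16 CPM), B4galt1 by 1.69 ± 0.09 (13.0 ± 0.359 and 41.4 ± 2.80 CPM) and Mgat1 by 0.71 ± 0.08. Fut8 rose by 1.95 ± 0.10 (61.6 ± 4.71 and 15.6 ± 0.873 CPM), Mgat2 by 0.70 ± 0.08 and St6gal1 by 0.45 ± 0.07, and Slc35a1 was level (-0.04 ± 0.12). Among IL-4+R848 cells the Cmah difference was -0.97 and that of St6gal1 -0.04 (adjusted p 0.749), where follicular-like Cmah was lower and St6gal1 higher than under R848.

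Smaller groups of members stood out in the other states under R848. In the Zbtb32 cluster (27.2% of genes called) Cmah rose by 1.13 ± 0.09 and Fut8 by 1.86 ± 0.11 (55.5 ± 7.19 and 15.6 ± 0.873 CPM), with smaller rises of Mgat1, Mgat2 and Man1a. Activated-like cells (51.6% called) had Cmah (-1.65 ± 0.08), St6gal1 (-1.04 ± 0.10), Mgat1 (-1.01 ± 0.09) and Man1a (-0.38 ± 0.05) lower, and Mgat2 and B4galt1 higher by under 0.40. Man1a was lowest in transitional-like cells (40.8 ± 4.02 CPM; -1.90 ± 0.07, 33% of genes called) and the Rag cluster (40.7 ± 5.84 CPM; -1.87 ± 0.17, 28.1% called), and the Rag cluster had the highest B4galt1 (93.1 ± 5.53 CPM; 1.23 ± 0.16). Marginal zone-like cells (33.3% called) had less Cmah (-0.65 ± 0.05) and St6gal1 (-0.73 ± 0.05), and cycling-like cells (49.9% called) more Fut8 (1.08 ± 0.11) with less Cmah (-0.55 ± 0.11), Man1a and St6gal1 (-0.60 ± 0.11). Among IL-4+R848 cells Cmah did not pass in marginal zone-like cells (-0.06, adjusted p 0.821, in a range of 2.90e-35 to 0.821 over its alternatives) and its sign turned in cycling-like cells (0.23, adjusted p 0.222, range 1.91e-06 to 0.222). Slc35a1 had mean levels between 9.62 and 16.03 CPM in all 10 states and was called in dividing plasmablast-like cells alone (0.50 ± 0.15, adjusted p 0.0223), a call that was lost without any 1 of the 3 sets (adjusted p 0.0523 to 0.0994) and under DESeq2 (0.0910, in a range of 0.00679 to 0.177 over its alternatives). In all, 51 of 72 contrasts of a member in a state were called under R848, and 34 of them were called with the same sign among IL-4+R848 cells. The share of all genes called under R848 ran from 27.2% in the Zbtb32 cluster to 73.2% in germinal center-like cells. How many of all genes were called with the same sign under both treatments was not counted, so these counts only describe the members.

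**Figure D4:**
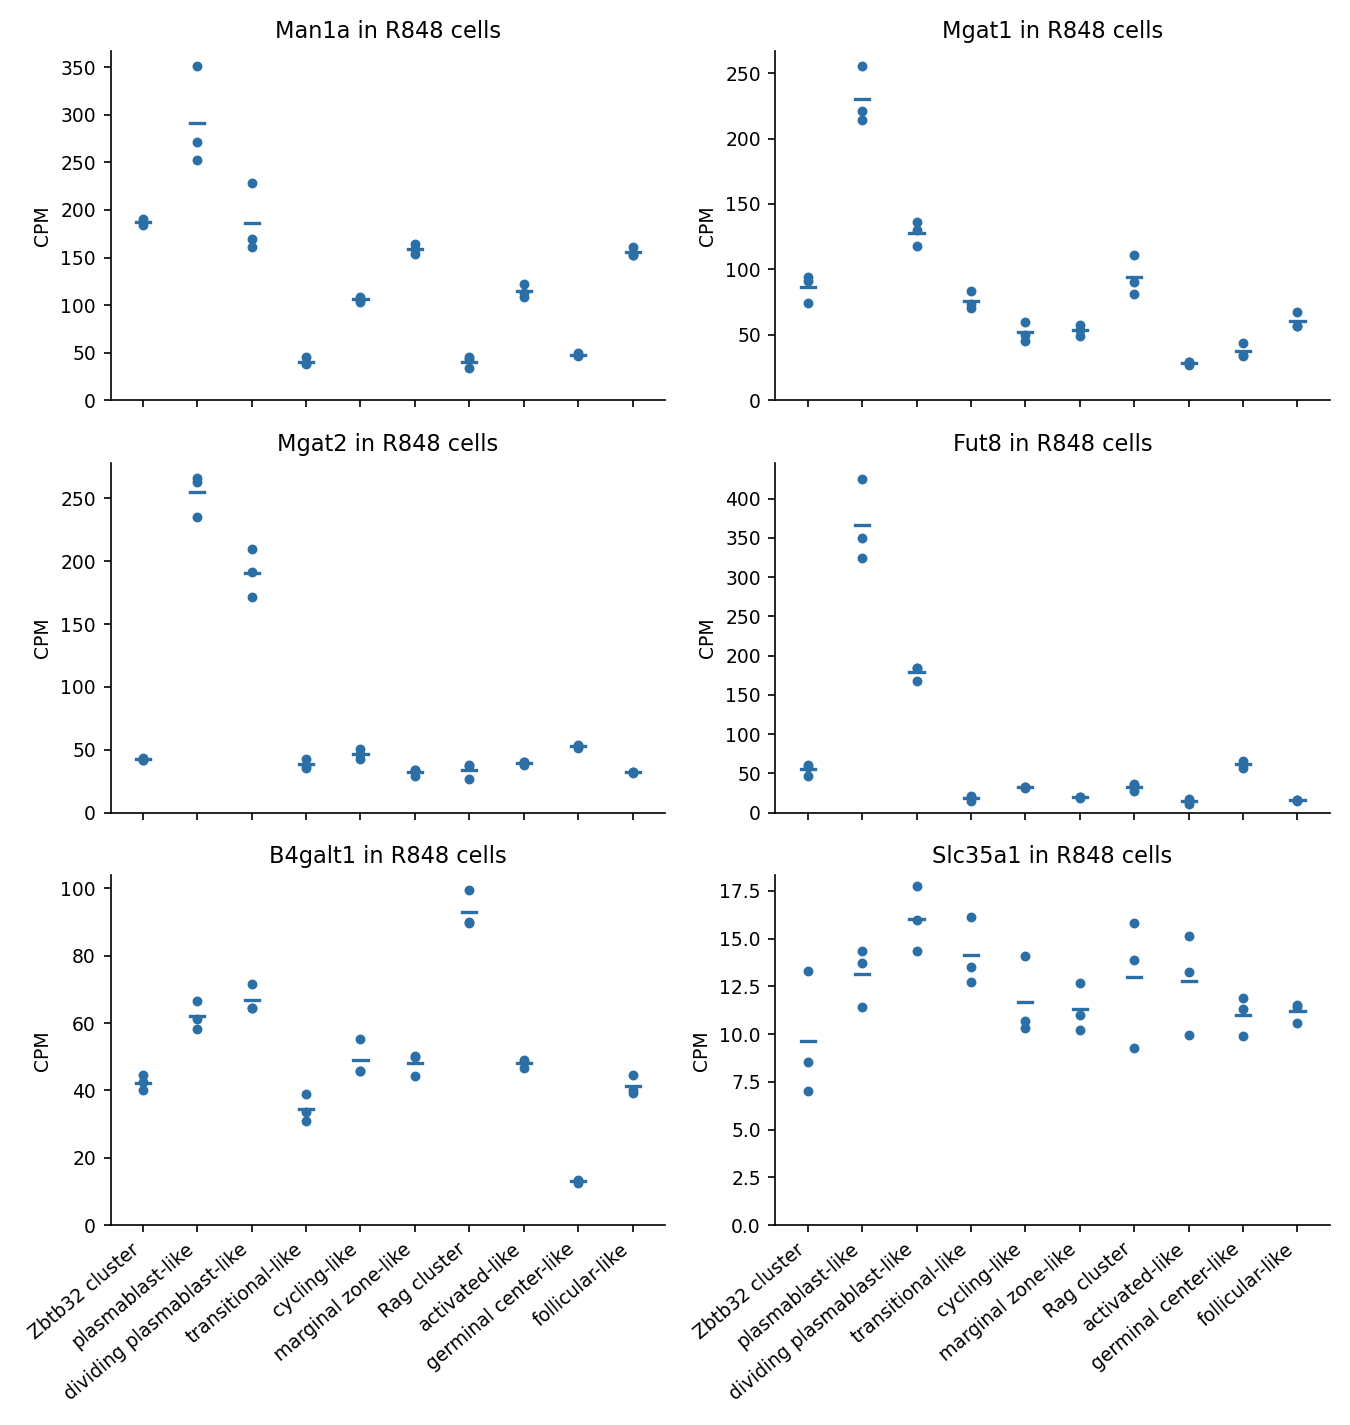
Man1a, Mgat1, Mgat2, Fut8, B4galt1 and Slc35a1 in CPM by state in R848 cells, with follicular-like cells at the right; each point is 1 set and each bar the mean of 3. Fut8, Mgat1 and Mgat2 stand highest in plasmablast-like cells, B4galt1 is lowest in germinal center-like cells at 12.6 to 13.3 CPM, and Slc35a1 stays at 17.8 CPM or less.

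The lists were counted for the states as well. In plasmablast-like cells 70 of 101 list genes tested were higher than in follicular-like cells and 10 were lower. Of 12 oligosaccharyltransferase genes, whose products attach the glycan to the nascent protein, 11 rose and 1 fell, with a median log2 difference of 3.01; Ddost (1815 ± 192 CPM in plasmablast-like cells and 93.1 ± 2.96 CPM in follicular-like cells) and Rpn1 (964 ± 68.8 and 62.9 ± 6.23 CPM) were among them. Of 17 branching and trimming genes 15 rose, led by Edem1 (2458 ± 211 and 37.3 ± 1.18 CPM) and Edem2, which act on misfolded glycoproteins in the endoplasmic reticulum. Of 8 sialic acid supply genes 5 rose, among them Nans, the N-acetylneuraminate synthase (275 ± 21.8 and 33.2 ± 0.383 CPM), and Gne, the enzyme that starts the route (88.1 ± 6.72 and 16.2 ± 1.26 CPM).

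Of 22 lipid-linked oligosaccharide genes 18 rose and none fell, of 10 fucosylation genes 7 rose and none fell, and of 8 UDP-GlcNAc genes 6 rose and 1 fell. Of 8 galactose genes 4 rose and 2 fell. Sialyltransferases were split, with 4 of 11 higher, among them St8sia6 (67.4 ± 7.28 and 7.28 ± 1.27 CPM), and 2 lower. Both lectins tested fell, Cd22 (13.2 ± 3.21 and 184.7 ± 8.47 CPM) and Siglecg (18.3 ± 4.94 and 115.4 ± 8.77 CPM). All of these stood against a background of 70% of genes called in either direction, with 3764 of 11009 genes higher and 3947 lower.

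In germinal center-like cells 35 of 99 list genes were higher than in follicular-like cells and 39 lower, a share near the 73.2% called over all genes, so these counts too only describe single genes. Nans rose there (95.5 ± 4.37 and 33.2 ± 0.383 CPM) while Renbp fell with Cmah, and of 8 sialic acid supply genes 2 rose and 4 fell. Of 11 sialyltransferases 4 rose and 6 fell: St3gal5, which makes the ganglioside GM3, rose (10.2 ± 2.60 and 1.73 ± 0.200 CPM), and St3gal1, which caps O-glycans, fell (5.37 ± 0.846 and 40.3 ± 5.71 CPM). Of 8 galactose genes 5 fell, B4galt1 among them, and 2 rose. Cd22, the receptor for alpha-2,6-linked sialic acid, fell (57.0 ± 0.939 and 184.7 ± 8.47 CPM).

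Plasmablast-like cells were separated by the heavy chain that made up at least 70% of a cell's heavy chain constant UMIs, and each class was compared with IgM cells over both treatments. Sums of at least 20 cells were available in 5 of 6 set and treatment pairs for IgG1 and IgG2b, in all 6 for IgG2c and IgM and in 2 for IgG3, and IgA cells, 7 to 14 a pair, were not tested. These levels are scaled within the plasmablast-like sums and are not comparable with those of the states. Fut8 was higher in every IgG class: in R848 cells it measured 300.0, 300.2 and 280.6 CPM in IgG1 cells, 212.8, 170.3 and 243.5 CPM in IgG2b cells and 252.4, 248.2 and 249.5 CPM in IgG2c cells, against 98.5, 88.8 and 93.4 CPM in IgM cells. No sum of these classes overlapped with IgM. The log2 differences were 1.59 ± 0.11 in IgG1 (adjusted p 7.44e-05), 1.15 ± 0.11 in IgG2b (adjusted p 0.000321), 1.47 ± 0.11 in IgG2c (adjusted p 2.57e-05) and 1.38 ± 0.16 in IgG3 (adjusted p 0.0207). The share of all genes called was 13.6% for IgG1, 16.4% for IgG2b, 20.7% for IgG2c and 2.47% for IgG3, and 4, 3, 5 and 1 of the 8 members were called.

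B4galt1 and Man1a were lower in IgG cells than in IgM cells. B4galt1 measured 20.4, 16.7 and 19.4 CPM in IgG1 R848 cells and 43.6, 43.4 and 49.6 CPM in IgM R848 cells, and fell by 1.15 ± 0.16 in IgG1, 1.05 ± 0.14 in IgG2b and 0.87 ± 0.13 in IgG2c (adjusted p 0.00143, 0.00134 and 0.00111). Man1a measured 104.9 ± 24.4 CPM in IgG1 R848 cells and 178.3 ± 23.5 CPM in IgM R848 cells, and fell by 0.81 ± 0.10 in IgG1, 0.62 ± 0.08 in IgG2b and 0.51 ± 0.08 in IgG2c; the IgG2b call was lost without set 3 (adjusted p 0.0599, range over alternatives 0.00102 to 0.0599). In IgG3 cells B4galt1 was at 13.4 ± 4.29 CPM (-1.83 ± 0.36, n = 2 sums, edgeR adjusted p 0.0633).

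St6gal1 fell in IgG1 cells by 0.57 ± 0.07 (adjusted p 0.00102) and in IgG2c cells by 0.54 ± 0.10 (adjusted p 0.00390, and 0.0527 without set 3, the highest of its alternatives, which began at 0.00581). Its values in R848 cells were 76.0, 65.7 and 53.1 CPM in IgG1 cells and 104.8, 99.8 and 94.9 CPM in IgM cells, and set 3 was lowest in both. In IgG2b cells the difference was -0.27 ± 0.08 (adjusted p 0.0582). Mgat1 was called in IgG2c cells alone (0.24 ± 0.07, adjusted p 0.0348), a call that was lost without a block for the set (adjusted p 0.115) and without any 1 set (adjusted p 0.0846 to 0.214, in a range of 0.0356 to 0.214 over its alternatives). Cmah, Mgat2 and Slc35a1 were called in no class. Between IL-4+R848 and R848 no member was called within IgM cells (0.0493% of genes called, 4 of 8108) or IgG2c cells (0.0154%, 1 of 6481). Median GL7 tag counts in R848 cells were 11, 7 and 6.5 UMIs in IgM cells and between 4 and 10 in the sets of all other classes.

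**Figure D5:**
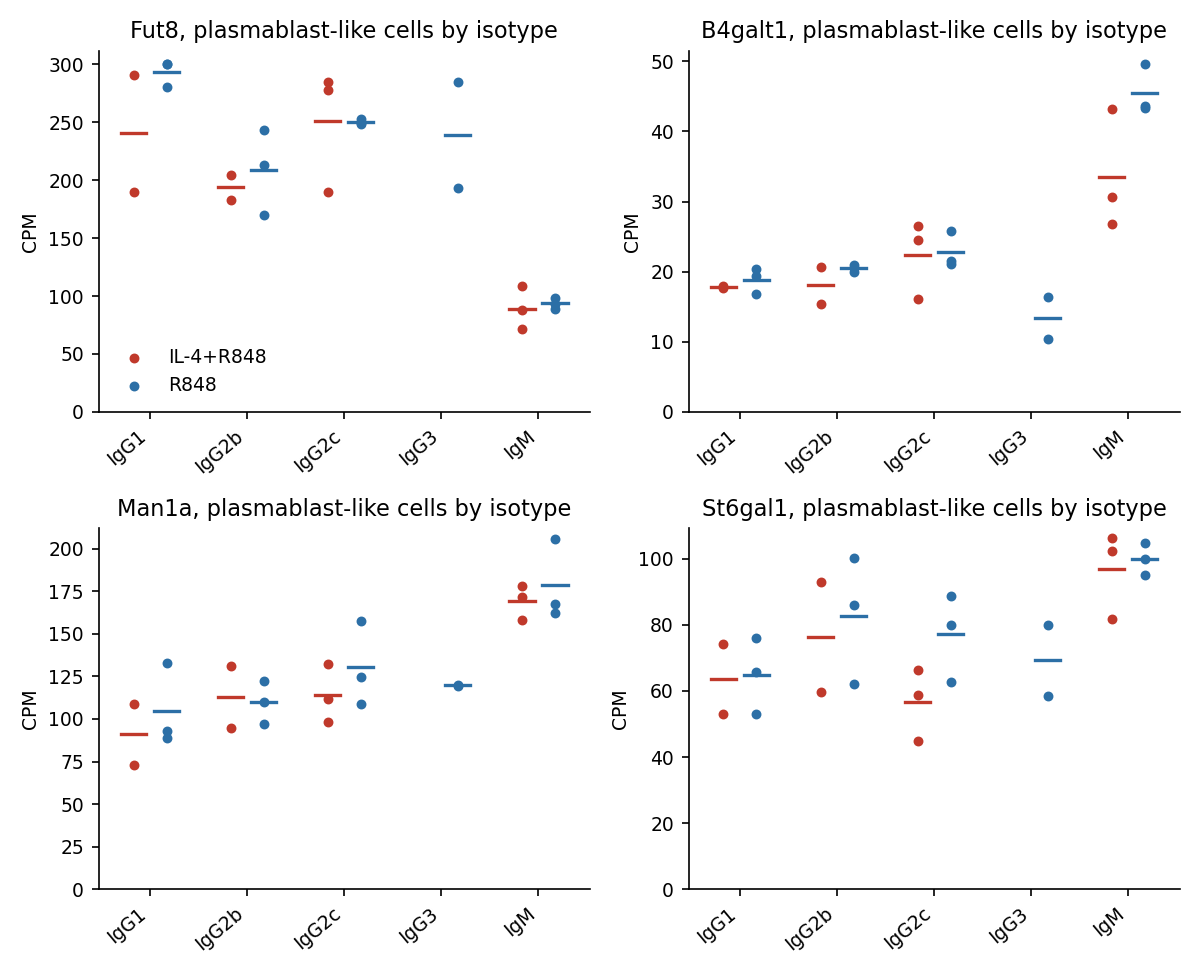
Fut8, B4galt1, Man1a and St6gal1 in CPM in plasmablast-like cells by heavy chain isotype, with IgM at the right; each point is 1 set, each bar a mean, and IL-4+R848 stands left of R848. Fut8 lies at 71.3 to 108.5 CPM in IgM cells and at 170.3 CPM or more in every IgG sum, and B4galt1 is higher in IgM cells.

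Across the 60 sums of the 10 states, the genes among 5467 whose log2 CPM went most closely with Cmah were Bhlhe41 (Pearson's r 0.84), Cdc42se2 (0.82), Sirt2 (0.80), Itga4 (0.79) and Tspo (0.79). Those closest to St6gal1 were Zcchc18 (0.84), Pou2af1 (0.75), Eaf2 (0.75), Tmem184b (0.74) and Ccdc71l (0.71). The sums share libraries and states, so these are descriptions of likeness without a test.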

How the data were processed

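A total of 3 sets of droplet 5′ libraries were read from the deposited matrices, which hold UMI counts per cell barcode for 32285 genes and 14 antibody tags, not normalised; the submitters' processing notes list Cell Ranger 6.0.1, Seurat 4.1.3 and the mm10 build, and what the authors used each for is not given in the sources used here. A cell was assigned to IL-4+R848 or R848 where its hashtag had at least 64 UMIs and 4 times the other, and kept with at least 500 genes and at most 10% mitochondrial UMIs. Cells with both hashtags were removed as doublets, and no doublet caller was run, so doublets within a treatment remain. Clusters came from scanpy 1.11.5 (2000 variable genes without the members, the glycosylation lists and the tags, 30 components, 15 neighbours, Leiden resolution 1) and were named by 18 marker lists. Counts were added up over the cells of a state in each set and treatment where at least 20 cells were present and tested with edgeR 4.0.16 (quasi-likelihood, TMM scaling, filterByExpr; R 4.3.3), with Benjamini-Hochberg adjustment over all genes. IL-4+R848 was set against R848 without a block for the set. States, isotypes and GL7-high and GL7-low cells were compared within sets, with the block. The test of the difference between states used 1 fit of all 10 states without the block, although the sums of a set share a library. Tag values were compared with the exact permutation test, two-sided. DESeq2 1.42.0, no filter on low counts, a 16-fold hashtag rule, clusters centred within set and treatment, the block and leaving out each set were alternatives; the GL7 comparison in IL-4+R848 cells and sums without immunoglobulin genes were added after seeing the data.

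The sets pair the treatments because both were pooled in 1 library. In follicular-like cells the deviations of same-set sums from their group means correlated at 0.44, 0.35 and 0.36, and in other states many were near 0. Between sets the follicular-like values were at most -0.09. The deviations of a treatment cancel out over its 3 sets, so the between-set values are tied to the same-set ones and are no separate comparison. Gene UMIs totalled 107244246, 96866964 and 99522280 in sets 1 to 3. Counts were also simulated without a set effect, with changes put only into genes averaging at least 20 UMIs a sum. On these the test recovered 89.2% of 111 2-fold changes in follicular-like cells (11075 genes tested). It recovered 91.8% of 110 in germinal center-like cells (9657 genes tested) and 67.9% of 106 in plasmablast-like cells (9542 genes tested). Recovery in genes of lower counts was not tested. The members and lists were chosen with earlier results of these data known. Besides the members, the text names list genes by size of the called change (up to 3 per list), markers of the GL7 split, and the 5 genes most like Cmah and St6gal1 by Pearson's r among genes of at least 20 CPM.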

Additional observations from a re-analysis of the deposited data

Results flagged for a closer look

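The IL-4 effect on Cmah and St6gal1 differed between states by the test of the difference itself, each state's log2 change minus that of follicular-like cells. For Cmah the difference was 1.21 ± 0.21 in germinal center-like cells (edgeR adjusted p 0.000241), 1.01 ± 0.19 in plasmablast-like cells (adjusted p 0.000834) and 0.96 ± 0.20 in dividing plasmablast-like cells (adjusted p 0.00338). For St6gal1 it was -0.76 ± 0.18 in plasmablast-like cells (adjusted p 0.0160) and -0.84 ± 0.19 in dividing plasmablast-like cells (adjusted p 0.00915). Follicular-like cells of the 2 treatments lay mostly in different clusters, and the part of this in the differences was not tested. The fit behind these differences held all states without a block for the set, and no alternatives are given for it.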

How the results depend on the processing

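In follicular-like cells the Cmah and St6gal1 calls held in all 8 alternatives, with log2 differences of -1.16 to -1.02 for Cmah and 0.69 to 0.79 for St6gal1. Counts of genes called between IL-4+R848 and R848 moved more, and where no value shows it the cause was not tested. With the replicate block for the set the counts were 135 in germinal center-like cells (27 without it), 33 in the Rag cluster (15), 152 in activated-like (90), 236 in transitional-like (144) and 2 in plasmablast-like cells (0); among the members it added the Man1a call in follicular-like cells and changed no other call. With no filter on low counts they were 217 in germinal center-like cells, 82 in the Rag cluster, 484 in the Zbtb32 cluster (2 members), 317 in activated-like (2 members), 399 in cycling-like (1 member), 381 in marginal zone-like (1 member), 378 in transitional-like and 8 in plasmablast-like cells. With the 16-fold hashtag rule they were 7 in germinal center-like, 3 in the Rag cluster, 3 in plasmablast-like and 0 in dividing plasmablast-like cells, with 2 members in the Zbtb32 cluster. DESeq2 gave 80, 9, 29 and 24 in germinal center-like cells, the Rag cluster, plasmablast-like and dividing plasmablast-like cells. Clusters centred within set and treatment gave 200 genes and 1 member in activated-like, 403 and 2 in marginal zone-like, and 497 and 3 in transitional-like cells.

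Leaving out each set in turn, with fewer samples, gave 842 to 1299 genes in follicular-like cells (1914 with all sets), 15 to 17 in germinal center-like, 2 to 5 in plasmablast-like, 1 to 13 in dividing plasmablast-like (4), 54 to 64 in activated-like, 48 to 119 in cycling-like (114), 51 to 74 in marginal zone-like (113), 60 to 114 genes and 0 to 1 members in transitional-like, and 73 to 107 genes (192) and 0 to 1 members in the Zbtb32 cluster. It gave 257 to 533 genes for IgG1 (881), 337 to 642 for IgG2b (1073), 684 to 847 genes and 3 to 4 members for IgG2c (1478 and 5), and 86 for IgG3 (194), for which no replicate block gave 350 genes and 2 members. For states against follicular-like cells it gave 1803 to 2351 genes in the Zbtb32 cluster (2844), and for GL7-high against GL7-low germinal center-like cells 197 to 1156 genes and 1 to 3 members (1002 and 3).

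State counts under DESeq2 were 1775 in the Rag cluster (2884), 1811 in the Zbtb32 cluster, 3388 in activated-like (5346), 1388 genes and 2 members in marginal zone-like (3605 and 4) and 1571 genes and 3 members in transitional-like cells (3428 and 5); without the block marginal zone-like cells had 2270. Among IL-4+R848 cells they were 2623 in activated-like, 1494 genes and 2 members in marginal zone-like and 1933 genes and 1 member in transitional-like cells. There the sign turned for Cmah (0.23) and B4galt1 (-0.25) in cycling-like cells and for St6gal1 in dividing plasmablast-like (-0.47), germinal center-like (-0.037) and transitional-like cells (-0.18). GL7-high against GL7-low follicular-like cells called 365 genes, against 791 genes and 1 member in IL-4+R848 cells, 26 ranked by tag UMIs and 163 between narrower extremes of the tag; germinal center-like cells called 280 in IL-4+R848 cells, 576 (1 member) ranked by tag UMIs and 615 (1 member) between narrower extremes.

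The log2 ratio of the GL7 tag by its median, by mean UMIs and per 1000 surface tag UMIs was 1.11, 2.32 and 1.76 in follicular-like cells, 0.48, 0.32 and -0.43 in germinal center-like cells, 0.41, 0.68 and -0.14 in the Zbtb32 cluster, 1.54, 2.71 and 2.33 in activated-like, 2.69, 1.46 and 0.76 in cycling-like and 0.39, 1.25 and 1.46 in marginal zone-like cells, and by median and mean 0.28 and 0.67 in plasmablast-like cells. Among IL-4+R848 and R848 sums, 36 cells was the smallest sum, which limits the precision of rare states.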

Other observations

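NK cell-like cells, which were not tested, held 1, 4 and 3 UMIs of Cmah in 41, 21 and 59 cells of sets 1 to 3 with IL-4+R848, and 5, 0 and 3 UMIs in 28, 7 and 46 cells with R848. IgA plasmablast-like cells had median GL7 tag counts of 7, 6 and 4 UMIs with IL-4+R848 and 5, 10 and 4.5 with R848, in 7 to 14 cells a set.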
